A study of Mus musculus with 48 samples.

Results

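Chromatin accessibility was compared between iNKT2 and iNKT1 cells, sublineages of invariant natural killer T (iNKT) cells, over 54489 regions of the mouse genome. The regions were all those of a deposited count table of 54524 regions that were at most 10000 bp wide, and the comparison rested on 2 ATAC-seq libraries of each sublineage out of 48 samples in the series. The cells were sorted fresh by flow cytometry from thymi of FVB/N mice, and no genotype, treatment, age, sex or sort gate was given for the ATAC-seq libraries. Both iNKT17 libraries of the same assay are given beside the named regions, and RNA-seq libraries of the same 3 sublineages (2 each) were used as a second readout. ATAC-seq inserts sequencing adapters into open DNA with the Tn5 transposase, so a region's read count follows its accessibility summed over all cells of the sample. Nothing in the labels said whether replicates came from separate animals or pools, so p-values here cover only library-to-library spread, part or all of it possibly technical.

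As background, iNKT cells carry a nearly invariant T cell receptor that recognises lipids on CD1d, and they acquire effector programs while still in the thymus under the transcription factor PLZF, encoded by Zbtb16. The iNKT1 cells are known for T-bet (Tbx21), interferon gamma (Ifng) and a natural killer (NK)-like set of receptors and granule proteins, the iNKT2 cells for interleukin-4 (Il4) and high PLZF, and the iNKT17 cells for interleukin-17 (Il17a). Open chromatin at a gene's start marks a promoter that can be bound, while open regions within and around genes include enhancers, several of which can serve a single gene.

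The 6 promoters below belong to genes whose start regions differ between the sublineages in the values that follow, and they are the 250 bases before the start in the RefSeq table for GRCm38 (mm10), 5′ to 3′ along the gene. They are reference sequence from another mouse strain than FVB/N. Capitals mark matches to the motifs described with the promoter counts further down. The first 3 overlap regions that were less accessible in iNKT2 and the last 3 overlap regions that were more accessible. Those of Ifng, Gzmb, Ccr4 and Sox4 lie wholly inside their region and that of Il12rb2 with 224 of its 250 bases. Of the Il4 promoter printed here, only the 60 bases nearest the start lie inside its region. The promoter of a second, downstream Il4 start is not printed. All 250 of its bases lie inside another region more accessible in iNKT2 (chr11:53617139-53617699).
Ifng, chr10:118440796-118441045, plus strand: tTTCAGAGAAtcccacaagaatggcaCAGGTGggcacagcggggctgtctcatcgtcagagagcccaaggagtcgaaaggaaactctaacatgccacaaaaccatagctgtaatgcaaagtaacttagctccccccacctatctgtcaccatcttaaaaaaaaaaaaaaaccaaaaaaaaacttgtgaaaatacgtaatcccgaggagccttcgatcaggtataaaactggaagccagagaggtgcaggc
Il12rb2, chr6:67376189-67376438, minus strand: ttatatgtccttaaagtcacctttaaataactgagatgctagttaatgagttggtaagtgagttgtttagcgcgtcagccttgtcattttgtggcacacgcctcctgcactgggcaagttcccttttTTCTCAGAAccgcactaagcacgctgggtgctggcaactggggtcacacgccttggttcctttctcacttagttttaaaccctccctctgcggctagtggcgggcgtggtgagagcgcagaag
Gzmb, chr14:56262335-56262584, minus strand: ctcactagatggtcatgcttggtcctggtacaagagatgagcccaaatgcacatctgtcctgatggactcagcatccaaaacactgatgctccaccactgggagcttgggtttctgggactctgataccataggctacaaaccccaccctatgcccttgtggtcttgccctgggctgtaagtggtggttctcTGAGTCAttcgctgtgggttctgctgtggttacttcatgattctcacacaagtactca
Il4, chr11:53618666-53618915, minus strand: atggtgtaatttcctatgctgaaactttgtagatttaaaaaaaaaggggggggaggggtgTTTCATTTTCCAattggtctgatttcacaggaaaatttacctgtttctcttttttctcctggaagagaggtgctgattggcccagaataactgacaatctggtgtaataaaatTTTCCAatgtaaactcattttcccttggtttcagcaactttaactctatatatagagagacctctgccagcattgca
Ccr4, chr9:114496545-114496794, minus strand: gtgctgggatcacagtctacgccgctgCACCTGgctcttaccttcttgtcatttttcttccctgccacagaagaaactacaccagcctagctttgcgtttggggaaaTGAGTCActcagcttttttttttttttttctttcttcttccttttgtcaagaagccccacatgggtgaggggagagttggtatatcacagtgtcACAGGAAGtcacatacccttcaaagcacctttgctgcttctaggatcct
Sox4, chr13:28953700-28953949, minus strand: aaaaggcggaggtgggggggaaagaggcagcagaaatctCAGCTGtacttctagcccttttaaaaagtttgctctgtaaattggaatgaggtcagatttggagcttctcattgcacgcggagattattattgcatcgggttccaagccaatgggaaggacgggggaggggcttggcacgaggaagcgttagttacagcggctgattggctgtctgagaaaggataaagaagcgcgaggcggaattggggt

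The 4 libraries compared held between 13299586 and 42964216 counts over all regions, with both iNKT2 libraries shallower than both iNKT1 libraries. Spearman's rank correlation over regions was 0.97 between the iNKT1 replicates and 0.89 between the iNKT2 replicates. The second iNKT2 library stood apart in the narrowest regions: 12.04% of its counts fell in the 2069 regions of 150 bp or less, against 0.88% to 2.28% in the other 5 libraries. Of the 2065 tested regions of that width, 95 were called higher and 61 lower in iNKT2. Their median log2 fold change was 1.49, against 0.01 over wider regions. A further difference followed the groups. The regions below the median level held 8.44% and 7.81% of the counts in the iNKT1 libraries but 13.7% and 11.4% in the iNKT2 libraries, and regions at gene starts held 51.9% and 51.6% against 46.4% and 42.2%. Genes of the T cell receptor complex and its signalling had open regions in every library, their 105 regions summing to between 1444 and 1793 CPM in the 4 libraries (CPM, counts scaled to a common library total after trimmed-mean, TMM, normalisation).

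Of 54485 regions with enough counts to test, 22126 were called different (40.6%; edgeR quasi-likelihood test with Benjamini-Hochberg adjusted p under 0.05), 12055 of them more accessible in iNKT2 (22.1%) and 10071 less (18.5%). These shares are the background for the counts that follow with TMM scaling over all positions. At gene starts the background was 8.62% higher and 31.0% lower. Scaling on the start regions of housekeeping genes, used further down, called 18164 regions higher and 3587 lower. Loess scaling has its own shares, given with it below. Large differences lay mostly on the side of iNKT2: beyond a log2 fold change of 3, 2111 regions were higher and 214 lower. Regions called lower were wider, with a median width of 700 bp against 476 bp for those called higher and 423 bp for those not called. At 22124 of the 22126 called regions the iNKT1 and iNKT2 libraries did not overlap, so lack of overlap adds little to a call. Without the second iNKT1 library the count of called regions fell to 11531, and without the first iNKT2 library to 14322.

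The direction of change moved with how strong a region was. Regions were divided by mean level into 5 classes of equal size. In the weakest class, 3654 were called higher in iNKT2 and 401 lower, with a median log2 fold change of 0.89. In the strongest class, 334 were called higher and 4699 lower, with a median of -0.47. When each library was instead scaled by a loess curve against mean level, which removes a trend of this kind by construction, the strongest class held 991 higher and 1266 lower calls, and 17714 regions were called in all (32.5%; 18.7% higher and 13.8% lower). Of the 22126 regions called with TMM scaling, 15046 kept the call and direction with the loess scaling (68.0%) and 0 were called in the opposite direction. Whether the trend lies in the cells or in the libraries was not tested.

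**Figure D1:**
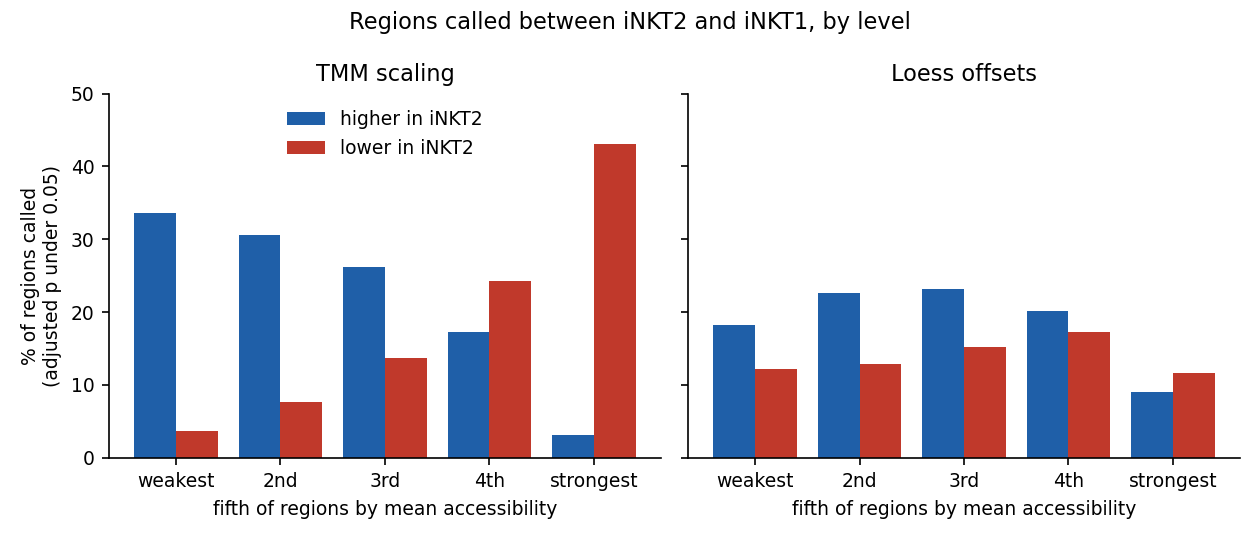
Share of regions called more accessible (blue) or less accessible (red) in iNKT2 than in iNKT1 (y axis, % of the regions in each class) against 5 equal classes of regions by mean accessibility (x axis), with TMM scaling on the left and loess scaling on the right. With TMM scaling, 3654 regions of the weakest class were called higher and 401 lower, and 334 of the strongest were called higher and 4699 lower; with loess scaling the strongest class held 991 and 1266.

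Regions at gene starts and regions elsewhere differed in balance. Of 12289 regions within 1 kb of a RefSeq start, 1059 were higher and 3810 lower in iNKT2 with a median log2 fold change of -0.34, whereas of 24023 regions in gene bodies 6531 were higher and 3701 lower with a median of 0.25. At starts, loess scaling gave 1278 higher and 1338 lower with a median of -0.03. Starts held 6547 of the 10897 strongest regions, so this scaling centres them largely by construction. It therefore cannot tell a difference at starts from a trend with level. In gene bodies the excess of higher calls was retained, with 5373 higher and 3436 lower. In the strongest class lower calls outnumbered higher calls in both positions, with 129 higher and 1228 lower of 2813 regions in gene bodies and 74 higher and 2913 lower of 6547 at starts; loess scaling gave 354 and 424, and 391 and 592.

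Lists of T cell genes, NK receptor genes, housekeeping genes and markers of other cell types, 254 genes in 19 lists, differed in direction. The plot of list shares shows 3 lists with most of their regions lower in iNKT2, and the type 17, identity and double-positive thymocyte lists with several times more regions higher than lower. The housekeeping genes had 17 of 49 regions lower (34.7%) and 2 higher (4.08%) with TMM scaling. With loess scaling they had 5 lower and 1 higher. Regions were given to the gene whose start or body they lay in, or else to the nearest gene within 100 kb, so that a region beside a gene may act on another.

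**Figure D2:**
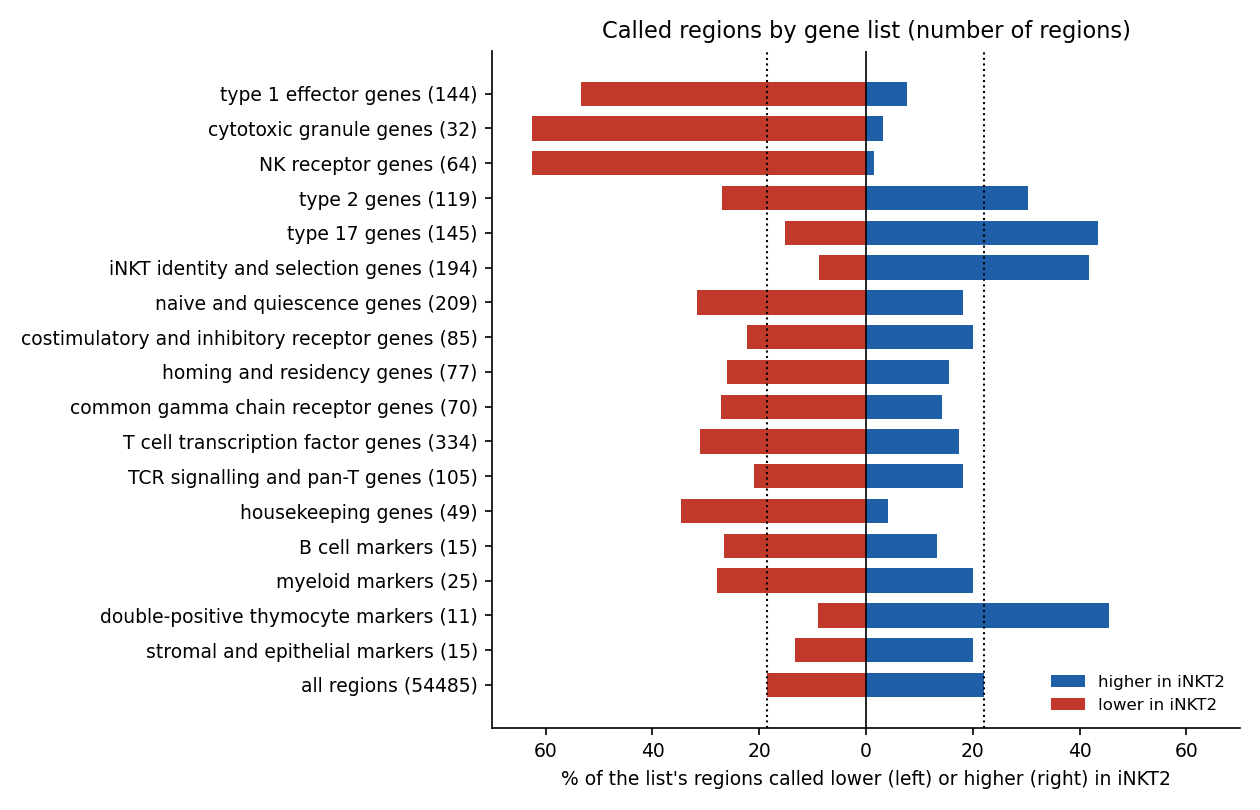
Share of each list's regions called less accessible (red, left) or more accessible (blue, right) in iNKT2 than in iNKT1 (x axis, %), for the lists with at least 10 regions (y axis, number of regions in parentheses); dotted lines mark the shares over all regions tested, 18.5% lower and 22.1% higher. The type 1, cytotoxic and NK receptor lists extend furthest to the left, with 77 of 144, 20 of 32 and 40 of 64 regions lower, and the type 17, identity and double-positive thymocyte lists furthest to the right, with 63 of 145, 81 of 194 and 5 of 11 regions higher.

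Chromatin at type 1 genes was less accessible in iNKT2. Of 144 regions of the 19 genes in this list, 77 were lower and 11 higher, with a median log2 fold change of -1.05 against 0.04 over all regions. Loess scaling gave 82 lower and 11 higher, and scaling on the start regions of housekeeping genes 53 lower and 19 higher. None of the 19 start regions in the list was called higher and 14 were lower, against 8.62% and 31.0% of all start regions. Il12rb2 encodes the receptor chain that makes a cell respond to interleukin-12. Its start region (chr6:67375779-67376412) had 50.6 and 74.2 CPM in the iNKT1 libraries, 5.15 and 7.15 in iNKT2 and 2.36 and 1.497 in iNKT17. The groups did not overlap, and the log2 fold change of iNKT2 against iNKT1 was -3.35 ± 0.31 (SE; edgeR adjusted p = 0.00018). The same gene held a weak region in its body that ran the other way (chr6:67292124-67292512), with 1.39 and 1.21 CPM in iNKT1 and 5.58 and 3.46 in iNKT2, a log2 fold change of 1.80 ± 0.40.

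Stat4, the transcription factor activated by interleukin-12, lost and gained regions within its own body. At chr1:52034672-52035716 the iNKT1 libraries had 59.2 and 54.7 CPM and the iNKT2 libraries 1.68 and 1.69, 1 of the 10 largest falls among strong called regions. At chr1:52100337-52100976 they had 10.0 and 12.5 against 22.2 and 31.1 CPM (log2 fold change 1.24 ± 0.32), a difference that did not pass without the first iNKT1 library (adjusted p = 0.074) or the second iNKT2 library (adjusted p = 0.070). In all, 7 of the 10 Stat4 regions were lower and 1 higher. Il2rb, the shared receptor chain for interleukin-2 and interleukin-15, had 5 of 7 regions lower. The one with the smallest p lay in the gene body (chr15:78510217-78511149), with 38.2 and 30.4 CPM in iNKT1, 5.96 and 5.38 in iNKT2 and 10.4 and 8.45 in iNKT17.

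The Ifng locus was mixed rather than uniformly closed. Of 19 regions assigned to Ifng, 11 were lower in iNKT2, 3 were higher and 5 were not called. The start region (chr10:118440595-118441249) had 54.5 and 54.3 CPM in iNKT1, 10.2 and 5.87 in iNKT2 and 1.42 and 0.997 in iNKT17. The 3 groups did not overlap, and iNKT2 stood between the others: the log2 fold change against iNKT1 was -2.75 ± 0.30, and that of iNKT17 against iNKT2 was -2.76 (edgeR adjusted p = 0.0019; 8.81% of all regions passed in that contrast). The 2 contrasts share the iNKT2 libraries here and below.

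Downstream of Ifng, the regions that were higher in iNKT2 lay 19.4, 20.5 and 40.6 kb from the start. The region at 19.4 kb (chr10:118460021-118460881) had 1.90 and 2.00 CPM in iNKT1, 13.1 and 18.7 in iNKT2 and 2.52 and 1.83 in iNKT17. It was high in iNKT2 alone among the 3 sublineages, with a log2 fold change of 3.02 ± 0.33 against iNKT1 and of -2.88 for iNKT17 against iNKT2 (edgeR adjusted p = 0.00027 and 0.0017). The region at 40.6 kb (chr10:118481553-118481774) rose from 0.386 and 0.512 CPM to 5.42 and 5.22, with 2.57 and 2.80 in iNKT17. The region at 20.5 kb (chr10:118461352-118461689) had a smaller difference, 1.16 ± 0.35, which passed neither with loess scaling (adjusted p = 0.079) nor with any of the 4 libraries left out. Next to them, at 28.1 kb, a region fell from 26.9 and 31.3 CPM in iNKT1 to 5.42 and 5.14 in iNKT2 (chr10:118468748-118469573).

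**Figure D3:**
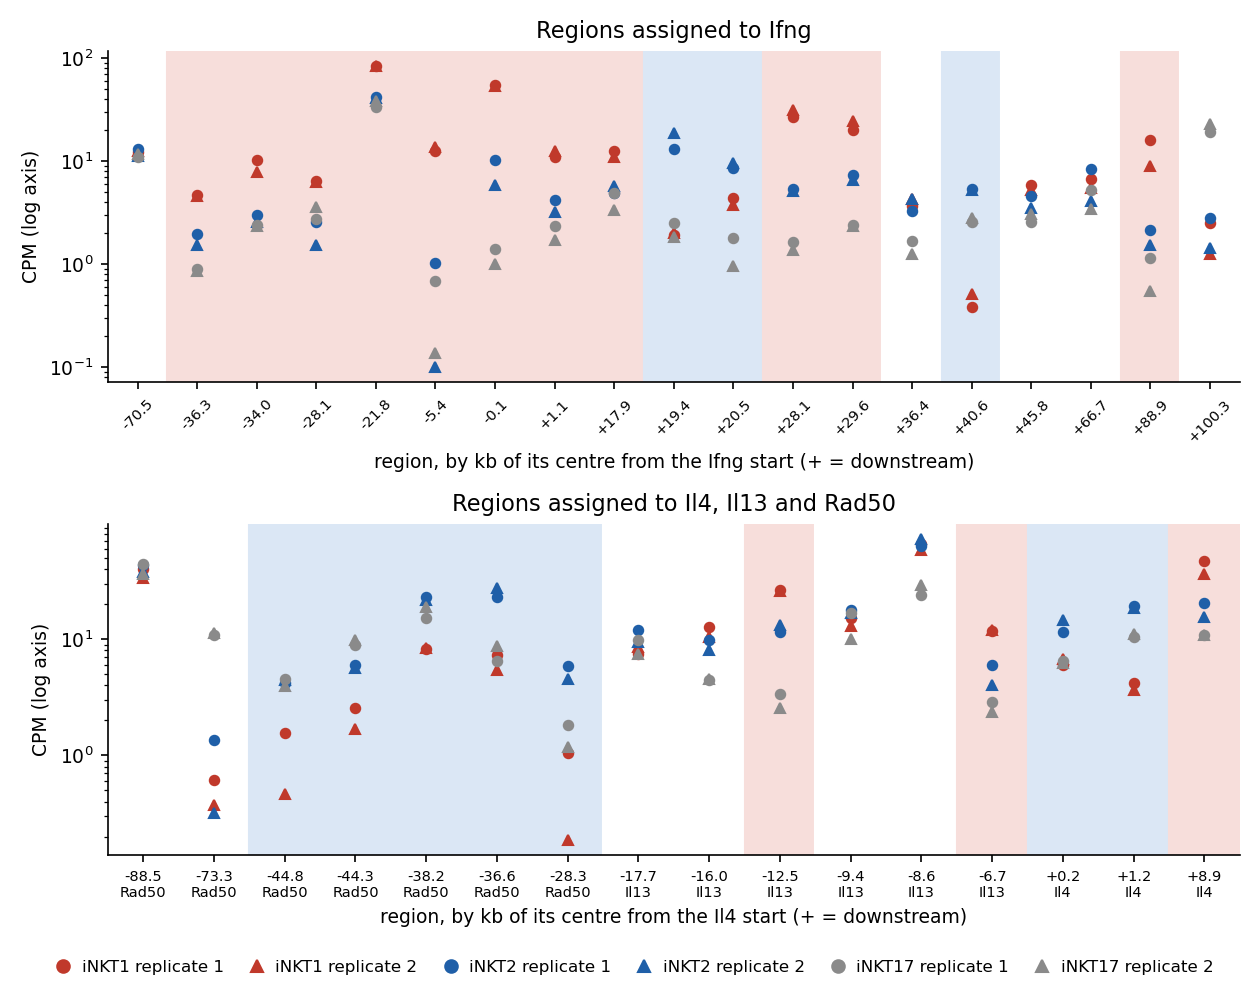
Accessibility in each library (y axis, CPM on a log axis) of every region assigned to Ifng (upper panel) and to Il4, Il13 and Rad50 (lower panel), ordered by the distance of the region's centre from the gene's start in kb (x axis); circles are replicate 1 and triangles replicate 2, and shading marks regions called higher (blue) or lower (red) in iNKT2 than in iNKT1. At Ifng, the regions at 19.4 and 40.6 kb are high in iNKT2 (13.1 and 18.7 CPM, and 5.42 and 5.22 CPM) amid regions that are high in iNKT1; at Il4, 5 regions of Rad50 and 2 near the Il4 start are higher in iNKT2.

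Genes of cytotoxic granules and NK receptors changed in the same direction. Of 32 regions of granule genes, 20 were lower in iNKT2 and 1 higher, and of 64 regions of NK receptor genes, 40 were lower and 1 higher. Loess scaling gave 17 lower and 1 higher for the granule genes, and 45 lower and 0 higher for the receptors. Gzmb encodes granzyme B, a protease that triggers death of target cells, and its start region (chr14:56261800-56262781) had 56.1 and 45.4 CPM in iNKT1, 3.68 and 2.25 in iNKT2 and 7.56 and 11.9 in iNKT17. Here iNKT2 was the lowest of the 3 sublineages, with a log2 fold change of -4.08 ± 0.34 against iNKT1 and of 1.70 for iNKT17 against iNKT2 (edgeR adjusted p = 0.00014 and 0.011). The region beside the start of Gzma, which encodes granzyme A (chr13:113101793-113102225), had 19.5 and 18.7 CPM in iNKT1 against 2.33 and 1.85 in iNKT2. Near Gzma on the same chromosome, a region in the body of Cdc20b (chr13:113087281-113087957) had 36.3 and 50.9 CPM against 1.79 and 1.21, 1 of the 10 largest falls among strong called regions.

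In the cluster of NK receptor genes on chromosome 6, all 5 regions of Klre1 and all 4 of Klrk1, which encodes the activating receptor NKG2D, were lower in iNKT2. The Klrk1 region with the smallest p (chr6:129608163-129608698) had 22.2 and 27.1 CPM in iNKT1 and 3.36 and 2.89 in iNKT2. A stretch of 11 neighbouring regions over 82.7 kb, running from Gabarapl1 through Klre1 and Klrd1 to Klrk1, was lower throughout, with a median log2 fold change of -3.00, and all 11 passed with loess scaling too. Slamf7, a receptor of NK cells and some T cells, had 5 of 6 regions lower, among them chr1:171628944-171630000 with 63.4 and 80.3 CPM in iNKT1 and 7.26 and 8.52 in iNKT2.

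Type 2 genes did not move as a group. Of 119 regions of 19 genes, 36 were higher in iNKT2 and 32 lower, a split of 30.3% and 26.9% against 22.1% and 18.5% over all regions, and loess scaling gave 34 and 36. Scaling on housekeeping starts gave 45 higher and 21 lower, where all regions had 18164 higher and 3587 lower. Of the 23 start regions of the list, 7 were higher and 8 lower, against 8.62% and 31.0% of all start regions. With loess scaling 7 were higher and 7 lower, against 10.4% and 10.9%. Within the Il4 locus the changes were close to the Il4 start and in Rad50, the neighbouring DNA repair gene whose introns are known to hold a control region for the type 2 cytokines. The downstream of the RefSeq starts of Il4 and its promoter lay inside a region called higher (chr11:53617139-53617699). That region had 4.16 and 3.68 CPM in iNKT1, 19.5 and 18.4 in iNKT2 and 10.4 and 11.2 in iNKT17. Both iNKT2 libraries were above all others, with a log2 fold change of 2.268 ± 0.24 against iNKT1 (edgeR adjusted p = 0.00024). The region at the upstream start (chr11:53618162-53618725) rose from 6.04 and 6.79 to 11.5 and 14.5 CPM, and its adjusted p was between 0.055 and 0.073 without the first iNKT1, the second iNKT1 or the second iNKT2 library.

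Of 7 Rad50 regions, 5 were higher in iNKT2 and 0 lower, and these 5 lay between 28.3 and 44.8 kb upstream of the Il4 start. Il13, which encodes interleukin-13 and lies between Il4 and Rad50, had no region called higher and 2 of 6 lower. The strongest Il13 region (chr11:53626724-53627725) had 65.7 and 58.8 CPM in iNKT1, 63.6 and 73.1 in iNKT2 and 24.2 and 29.5 in iNKT17. It overlapped between iNKT1 and iNKT2 (log2 fold change 0.13 ± 0.18), passed as higher with loess scaling (0.61), and was lower in iNKT17 than in iNKT2 by 1.35 on the log2 scale (edgeR adjusted p = 0.0035). On the other side of Il4, 8.9 kb downstream of its start, a region fell from 47.2 and 36.7 CPM in iNKT1 to 20.4 and 15.4 in iNKT2 (chr11:53609350-53610220).

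Other type 2 genes differed one from another. Ccr4, a chemokine receptor of type 2 helper cells, opened at its start (chr9:114496358-114496819), from 4.24 and 3.12 CPM in iNKT1 to 23.6 and 22.9 in iNKT2, with 13.3 and 16.4 in iNKT17. A region 6238 bp from Irf4, a transcription factor induced by receptor signals (chr13:30742280-30742995), rose from 3.01 and 2.19 to 17.4 and 26.2 CPM, and 6 of 11 Irf4 regions were higher. Il6ra, a receptor chain for interleukin-6, had 6 of 8 regions higher. Il10, an anti-inflammatory cytokine, had an open region in iNKT2 at 13436 bp from the gene, where 0.206 and 0.233 CPM in iNKT1 compared with 4.55 and 5.79 in iNKT2 (chr1:131006126-131006409), although Il10 RNA was listed at 0 in all 6 RNA libraries.

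In contrast, Gata3, the transcription factor that directs type 2 helper cells, had 6 of 16 regions lower and 0 higher. Its largest difference, 55007 bp from the gene (chr2:9801319-9802071), was 56.3 and 67.3 CPM in iNKT1, 10.3 and 11.97 in iNKT2 and 5.46 and 6.09 in iNKT17. The groups did not overlap, with a log2 fold change of -2.47 ± 0.21. Gata3 RNA was 125 and 225 CPM in iNKT1 and 154 and 151 in iNKT2, values that overlapped (log2 fold change -0.20, edgeR adjusted p = 1.0). Nfil3, a transcription factor needed for NK cells and a regulator of interleukin-4 expression, had 8 of 9 regions lower and 0 higher. Il4ra, the interleukin-4 receptor chain, had 3 of 6 regions lower, including 126 and 115 CPM in iNKT1 against 30.2 and 35.3 in iNKT2 (chr7:125580937-125581917).

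Genes of iNKT identity and selection were more accessible in iNKT2, with 81 of 194 regions higher and 17 lower and a median log2 fold change of 0.60. Loess scaling gave 70 higher and 16 lower. Of the 17 start regions of the list, 6 were higher and 5 lower, against 8.62% and 31.0% of all start regions. Their median was -0.27, against -0.34 over all start regions. Loess scaling gave 6 higher and 2 lower with a median of -0.11, against -0.03. Sox4, a transcription factor of developing lymphocytes that is needed for iNKT cells to form, had all 5 of its regions higher. Its start region (chr13:28953250-28954013) had 6.25 and 8.38 CPM in iNKT1, 43.6 and 43.7 in iNKT2 and 41.4 and 53.2 in iNKT17. The iNKT2 and iNKT17 values overlapped, and both groups were far above iNKT1 (log2 fold change 2.58 ± 0.23). A stretch of 19 neighbouring regions over 542.6 kb that includes the Sox4 start was higher throughout, and 18 of the 19 passed with loess scaling.

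Id3, an inhibitor of E-protein transcription factors, had 6 of 7 regions higher. A region 36704 bp from Id3 (chr4:136106771-136107118) had 2.01 and 1.40 CPM in iNKT1, 18.0 and 16.7 in iNKT2 and 7.29 and 5.90 in iNKT17. The single region assigned to Cd4, the co-receptor that separates iNKT cells into CD4-positive and CD4-negative cells, lay in the gene body (chr6:124884862-124885514) and had 2.37 and 3.26 CPM in iNKT1, 14.4 and 18.7 in iNKT2 and 6.98 and 8.75 in iNKT17. In both of these regions iNKT2 was the highest of the 3 sublineages without overlap. Slamf6, a receptor that takes part in iNKT selection, had all 4 regions higher, and Tox, a factor of CD4 T cell development, had 9 of 19 higher and 3 lower.

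Icos and Zbtb16 each combined gains with a loss. Icos, a costimulatory receptor, had 9 of 20 regions higher and 1 lower. The gain with the smallest p lay 21950 bp from the gene (chr1:61022272-61022720), with 0.488 and 0.931 CPM in iNKT1, 7.64 and 8.36 in iNKT2 and 3.04 and 3.74 in iNKT17. The loss was in the gene body (chr1:60990089-60990961), the strongest of the Icos regions, with 89.9 and 99.7 CPM in iNKT1 and 36.7 and 45.4 in iNKT2, while Icos RNA was 1416 and 1017 CPM in iNKT2 and 112 and 95.3 CPM in iNKT1. Zbtb16 had 18 of 38 regions higher and 1 lower. The lower one (chr9:48817060-48817655; 38.9 and 42.4 CPM against 20.5 and 23.9) did not pass without the first iNKT2 library (adjusted p = 0.069) or with scaling on housekeeping starts (adjusted p = 0.087).

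Type 17 genes were also more accessible in iNKT2 than in iNKT1. Of 145 regions of 17 genes, 63 were higher and 22 lower, with a median log2 fold change of 0.95, and loess scaling gave 57 higher and 18 lower. At the starts 5 of 13 regions were higher and 0 lower. Blk, a kinase of the Src family, had 10 of 11 regions higher. The one with the smallest p (chr14:63383178-63383690) had 0.540 and 0.372 CPM in iNKT1, 9.10 and 6.91 in iNKT2 and 26.4 and 24.8 in iNKT17. The 3 groups were ordered without overlap, with a log2 fold change of 4.09 ± 0.31 for iNKT2 against iNKT1 and 1.67 for iNKT17 against iNKT2 (edgeR adjusted p = 0.00013 and 0.0057).

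A region 5761 bp from Il17a (chr1:20740257-20740938) followed the same order, with 1.65 and 1.35 CPM in iNKT1, 11.7 and 23.4 in iNKT2 and 41.5 and 64.1 in iNKT17. Il1r1, a receptor for interleukin-1, had 8 of 12 regions higher and 1 lower. Blk RNA was 0.914 and 0.419 CPM in iNKT1, 9.26 and 17.3 in iNKT2 and 3009 and 1769 in iNKT17, and it was higher in iNKT2 than in iNKT1 (log2 fold change 4.32, edgeR adjusted p = 0.0071). Il1r1 RNA was 0.392 and 0.209 CPM in iNKT1, 0.372 and 0.289 in iNKT2 and 1074 and 1144 in iNKT17. Il17a RNA was listed at 0 in both iNKT1 libraries and was 0.034 and 0.036 CPM in iNKT2 against 39.7 and 15.1 in iNKT17.

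RNA of Sox13 and Rora was also present in iNKT2. Sox13, a transcription factor of gamma delta T cells that make interleukin-17, had 11 of 13 regions higher, among them chr1:133406830-133407239 with 1.11 and 1.12 CPM in iNKT1, 10.2 and 10.8 in iNKT2 and 10.4 and 9.17 in iNKT17. The iNKT2 and iNKT17 libraries overlapped in that region, and Sox13 RNA was 606 and 589 CPM in iNKT2 and 576 and 567 in iNKT17 against 11.3 and 38.4 in iNKT1 (edgeR adjusted p = 0.0060). Rora, a nuclear receptor, had 12 of 27 regions higher and 6 lower. The Rora region with the smallest p (chr9:69226482-69227618) went from 2.01 and 1.77 CPM in iNKT1 to 22.1 and 22.6 in iNKT2, with 25.6 in each iNKT17 library, and RNA rose from 14.9 and 28.3 to 148 and 113 CPM without passing the test (edgeR adjusted p = 0.064). Ahr, a receptor for small ligands that is also needed for interleukin-22, had 5 of 7 regions lower and 0 higher.

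Costimulatory and inhibitory receptor genes were split. Of 85 regions, 17 were higher and 19 lower (loess scaling 14 and 18). Scaling on housekeeping starts gave 25 higher and 13 lower, where all regions had 18164 higher and 3587 lower. Against all regions, the list's median log2 fold change was -0.30 with TMM scaling and -0.29 with housekeeping scaling. These values agree by construction, because a scaling factor shifts all regions by about the same amount. The housekeeping genes had -0.31 with TMM scaling. With loess scaling the housekeeping genes had -0.11 and this list -0.28. Tnfrsf4, which encodes the costimulatory receptor OX40, had a single region, at its start (chr4:156013360-156014095), with 1.59 and 1.68 CPM in iNKT1, 22.1 and 21.5 in iNKT2 and 3.83 and 1.47 in iNKT17. It was open in iNKT2 alone, with a log2 fold change of 3.74 ± 0.43 against iNKT1 and of -3.07 for iNKT17 against iNKT2 (edgeR adjusted p = 0.00033 and 0.0034). Lag3 and Pdcd1, inhibitory receptors of activated T cells, had 3 of 6 regions higher with 0 lower and 2 of 7 higher with 1 lower. Tigit, an inhibitory receptor shared with NK cells, had 6 of 9 lower and 0 higher. Cd28 had 3 of 11 regions in each direction, including chr1:60713627-60714189, which rose from 0.386 and 0.372 CPM to 5.69 and 5.14, and chr1:60702517-60703121, which fell from 18.9 and 18.5 to 3.96 and 5.55.

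Genes of naive and quiescent T cells had 66 of 209 regions lower and 38 higher (loess scaling 60 and 35). Scaling on housekeeping starts gave 33 lower and 60 higher, where all regions had 3587 lower and 18164 higher. The list's median log2 fold change minus that of all regions was -0.245 with TMM scaling and -0.251 with housekeeping scaling. These values agree by construction, because a scaling factor shifts all regions by about the same amount. The housekeeping genes had -0.31 with TMM scaling. With loess scaling the housekeeping genes had -0.11 and this list -0.34. Within the list, Ccr7 and Bcl2 moved in opposite directions. Ccr7, the receptor that guides cells to lymph nodes and the thymic medulla, had 10 of 15 regions higher and 1 lower, among them chr11:99170664-99171272 with 0.874 and 0.326 CPM in iNKT1 and 15.8 and 23.1 in iNKT2. Bcl2, the survival factor, had 9 of 20 lower and 1 higher, among them chr1:106612419-106613212 with 60.4 and 55.9 CPM in iNKT1 and 4.06 and 4.26 in iNKT2. The RNA of both moved the same way, Ccr7 from at most 0.065 CPM in iNKT1 to 57.6 and 158 in iNKT2 and Bcl2 from 501 and 164 to 8.07 and 16.1 (edgeR adjusted p = 0.0061 and 0.014).

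Homing receptors, cytokine receptors and signalling regulators gave further examples at gene starts. The homing list had 20 of 77 regions lower and 12 higher (loess scaling 19 and 9). At its starts 7 of 10 regions were lower and 0 higher, against 31.0% and 8.62% of all start regions. With scaling on housekeeping starts the whole list had 11 lower and 20 higher, where all regions had 3587 lower and 18164 higher. Itga1, an integrin of tissue-resident cells, fell at its start (chr13:115101329-115102095) from 16.8 and 21.7 CPM in iNKT1 to 2.06 and 2.81 in iNKT2. Il9r, the interleukin-9 receptor, rose at its start (chr11:32200053-32200626) from 4.16 and 2.14 to 18.3 and 21.6 CPM. Socs3, an inhibitor of cytokine signalling, was low at its start in iNKT2 alone (chr11:117968865-117969609), with 85.5 and 66.8 CPM in iNKT1, 21.1 and 17.8 in iNKT2 and 87.3 and 64.2 in iNKT17. The log2 fold changes there were -1.97 ± 0.22 against iNKT1 and 1.96 for iNKT17 against iNKT2 (edgeR adjusted p = 0.00031 and 0.0017).

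**Figure D4:**
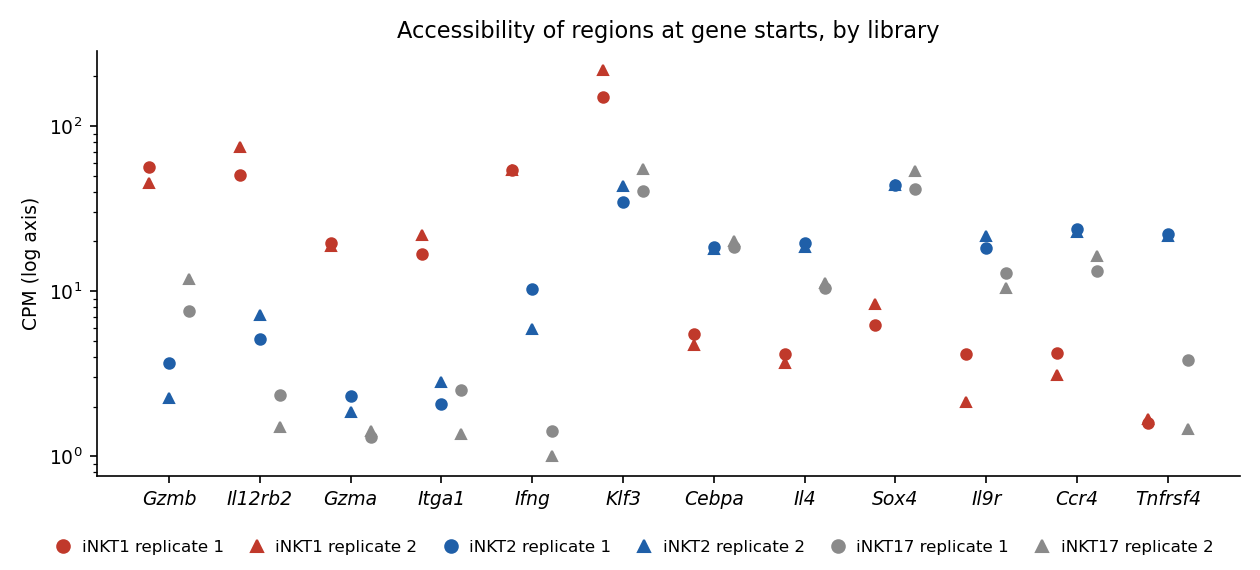
Accessibility in each library (y axis, CPM on a log axis) of start regions of 12 named genes (x axis, from the most negative to the most positive log2 fold change of iNKT2 against iNKT1); circles are replicate 1 and triangles replicate 2. The regions shown were chosen among called ones, and at 22124 of the 22126 called regions the iNKT1 and iNKT2 libraries do not overlap. The lack of overlap at the genes shown follows from that choice. Gzmb, Il12rb2 and Ifng are high in iNKT1, and the Tnfrsf4 start is high in iNKT2 alone with 22.1 and 21.5 CPM.

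Among transcription factor genes of T cells, 104 of 334 regions were lower and 58 higher (loess scaling 99 and 47). Scaling on housekeeping starts gave 53 lower and 93 higher, where all regions had 3587 lower and 18164 higher. Against all regions, the list's median log2 fold change was -0.27 with TMM scaling and -0.28 with housekeeping scaling. These values agree by construction, because a scaling factor shifts all regions by about the same amount. The housekeeping genes had -0.31 with TMM scaling, with 17 of their 49 regions lower and 2 higher. With loess scaling the housekeeping genes had -0.11 and this list -0.35. The Runx genes, which encode partners of the core binding factor in T cell development, went in different directions. Runx1 had 20 of 36 regions higher and 2 lower, Runx3 had 9 of 26 lower and 2 higher, and Runx2 had 12 of 16 lower and 0 higher. The Runx1 region with the smallest p (chr16:92761904-92762185) had 0.926 and 0.838 CPM in iNKT1, 14.7 and 19.8 in iNKT2 and 34.1 and 32.5 in iNKT17, and Runx1 RNA was 0.196 and 0 CPM in iNKT1 against 71.8 and 74.1 in iNKT2 (edgeR adjusted p = 0.0029). Ikzf1, which encodes Ikaros, had 9 of 18 lower and 0 higher. Irf8 had 5 of 12 lower and 0 higher, including chr8:120716028-120716901 with 26.3 and 22.8 CPM in iNKT1, 5.09 and 3.94 in iNKT2 and 17.5 and 20.7 in iNKT17. That region was lowest in iNKT2, and iNKT17 exceeded iNKT2 by 2.07 on the log2 scale (edgeR adjusted p = 0.0020).

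The largest rises among strong called regions were in gene bodies of genes outside these lists. Strong here means at least 20 CPM in the higher group, and 1 region was taken per gene. The 10 with the largest rise among strong called regions lay in Dhx32, Fbln1, Cryab, Srbd1, Samhd1, Ostm1, Klc1, Amph, Fam193a and Trim37, with log2 fold changes from 5.08 to 6.31. The Ostm1 region (chr10:42698977-42699407) had 0.900 and 0.931 CPM in iNKT1, 30.3 and 40.7 in iNKT2 and 13.0 and 12.6 in iNKT17. By the same rule, the 10 largest falls were assigned to Stat4, Cdc20b, Serpinb1b, Lrrc8c, Osbpl3, Gpc5, Ptpre, Gas7, Vrk1 and Ifrd1. Their log2 fold changes ran from -5.08 to -4.15, and that of Lrrc8c did not pass with loess scaling. The region of Serpinb1b, a protease inhibitor gene (chr13:33071650-33072493), had 58.2 and 67.8 CPM in iNKT1 against 2.06 and 2.65 in iNKT2. The genes with the most regions higher were Runx1, Msi2 (19 of 28), Zbtb16, Arid1b (15 of 31), Etv6 (14 of 17), Igf1r (14 of 18), Mtss1 (14 of 15) and Nav2 (14 of 37). Those with the most lower were Akap13 (21 of 50), Prex1 (20 of 33), Arhgap26 (18 of 36), Chd7 (15 of 34), Ubac2 (15 of 27), Chsy1 (13 of 17), Mbnl1 (13 of 28) and Runx2.

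Regions of genes whose RNA differed were called in the direction of the RNA more often than against it. RNA of 159 of 12372 genes passed between iNKT2 and iNKT1 (1.29%; 0.533% higher and 0.752% lower; edgeR adjusted p under 0.05), and 1009 passed by DESeq2. The genes with more RNA in iNKT2 (59 with regions) had 264 of 537 regions higher and 40 lower (loess scaling 243 and 26). In their bodies 167 of 303 regions were higher and 23 lower, while at their starts 27 of 69 were higher and 7 lower with a median log2 fold change of 0.31. The genes with less RNA (87 with regions) had 347 of 724 regions lower and 41 higher (loess scaling 341 and 34), and at their starts 63 of 97 were lower and 1 higher. In bodies of those genes 173 of 385 were lower and 23 higher. Over all other genes, 8.50% of start regions were higher and 30.9% lower (loess scaling 1251 and 1286 of 12123).

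Markers of other cell types had few open regions. Of 11 regions of 4 of the 8 markers of double-positive thymocytes, 5 were higher and 1 lower. Loess scaling gave 3 and 1, where 18.7% of all regions were higher and 13.8% lower. The regions were weak, with a median of 3.65 CPM in iNKT1. The lower one lay at the start of Aqp11, which had 4 regions and 0 higher. Arpp21, a gene of immature thymocytes, had 3.34 and 3.82 CPM in iNKT1, 27.4 and 32.9 in iNKT2 and 8.60 and 8.62 in iNKT17 in its body (chr9:112174354-112175427). Beside Rag1, which encodes the recombinase of receptor genes, 0.488 and 0.279 CPM compared with 2.38 and 3.13 (chr2:101637084-101637444). The 11 regions summed to 117 and 131 CPM in iNKT1 and 133 and 143 in iNKT2, and no region was assigned to Cd8a, Cd8b1, Rag2 or Ptcra. In RNA the 8 markers summed to 3.23 and 0.060 CPM in iNKT1 and to 0 and 14.9 CPM in iNKT2. Their part in the gains at identity genes was not tested. B cell markers had 2 regions higher and 4 lower of 15 (loess scaling 2 and 5), and their regions summed to 238 CPM in the second iNKT2 library against 67.1 to 92.2 CPM in the other 5. Myeloid markers had 5 higher and 7 lower of 25 (loess scaling 5 and 3), stromal and epithelial markers 3 and 2 of 15 (loess scaling 1 and 1), erythroid markers 1 and 0 of 2, and gamma delta T cell markers had no region.

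Motif letters were counted on both strands of 300 bp around each RefSeq start (250 bases before to 50 after), and 10107 of 32817 such windows were used as overlapping a region, 1 window for each region. In the sequences printed above, the Ifng promoter carries a STAT motif (TTCNNNGAA) from -249 to -241 and an E2A-type E-box (CAGGTG) from -224 to -219, counted from the start. The Il12rb2 promoter carries a STAT motif from -123 to -115 and the Gzmb promoter an AP-1 motif (TGANTCA) from -58 to -52. The printed Il4 promoter carries NFAT motifs (TGGAAA) from -184 to -179, overlapping an IRF motif, and from -77 to -72. All of them lie outside the region called higher at that start. The downstream Il4 promoter, wholly inside its region, carries no match to the motifs counted. The Ccr4 promoter carries an ETS motif (ACAGGAAG) from -49 to -42, an AP-1 motif from -143 to -137 and an E2A-type E-box from -223 to -218, and the Sox4 promoter an E-box (CAGCTG) from -211 to -206.

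E-boxes were in 19.1% of windows called higher in iNKT2, 14.2% of those called lower and 14.7% of those not called. They were in 14.9% of all windows with a region. Over all RefSeq windows, which include those without a region, the share was 16.3%. In the same order, E2A-type E-boxes were in 23.3%, 16.2%, 18.4%, 18.1% and 20.2%, and AP-1 motifs in 6.19%, 4.60%, 4.61%, 4.74% and 7.81%. With loess scaling the AP-1 order turned, to 5.48% of the higher and 6.95% of the lower windows, whereas E-boxes stayed at 18.2% and 16.6% and E2A-type E-boxes at 21.8% and 17.3%. The T-box motif of T-bet (AGGTGTGA) was in 0.57%, 0.94%, 0.84%, 0.85% and 1.27%, again in that order. With loess scaling it was in 0.63% and 1.57% of the higher and lower windows. RUNX motifs (TGTGGTTT) were in 2.06% of the higher and 1.199% of the lower windows, an order that turned with loess scaling (2.06% and 2.54%). Median GC content was 59.7% in the higher, 64.0% in the lower, 61.3% in all windows with a region and 52.7% in all RefSeq windows. NFAT motifs were in 16.6% of the higher and 13.3% of the lower windows, STAT motifs in 6.53% and 6.88%, IRF motifs in 3.32% and 2.85% and ETS motifs in 3.67% and 3.17%. The same count was made for further motifs, whose shares in the higher and lower windows differed by less than 1 percentage point. The GATA motif was AGATAAG. The TCF/LEF motif was ATCAAAG. The others were EGR (GCGTGGGNG), NF-kB (GGGANNTCC), KLF (CCACACCC), NR4A (AAAGGTCA), MAF and CTCF. These matches describe letters in a window and show no binding.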

How the data were processed

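Chromatin accessibility (ATAC-seq) and RNA were measured in sorted thymic iNKT cells. The authors deposited 1 table of raw counts per assay, regions by library and genes by library. The submitters' processing notes list Bowtie2, MACS2, SAMtools, bedtools, HOMER, STAR and DESeq2 and the builds mm10 and GRCm38, without their roles. How the region set was formed is not given in the sources used here. ATAC depth was 13299586 to 42964216 counts per library and RNA depth 26811373 to 33688697 among the libraries used.

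Here filterByExpr removed low counts from both tables, and edgeR 4.0.16 (R 4.3.3) then tested them with TMM scaling, a robust quasi-likelihood fit over the 3 sublineages and Benjamini-Hochberg adjustment at 0.05. The procedure was also run on simulated counts with less library-to-library spread than these data. That run does not show how the test behaves on these libraries. DESeq2 1.42.0, loess offsets, scaling on 15 housekeeping start regions and other alternatives were also run. A region was assigned to a gene whose RefSeq start lay within 1000 bp, else to the gene body it overlapped, else to the nearest gene within 100 kb. The plan was the nearest start, but starts were held for only 79.9% of protein-coding genes. Motifs were planned for region centres and were counted in RefSeq promoter windows instead.

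Named regions were the 10 largest rises and falls (at least 20 CPM in the higher group, no overlap, 1 per gene), up to 5 genes per list and direction by smallest p, the 8 genes with most regions in each direction, and regions of Zbtb16, Ifng, Tbx21, Il4, Il13, Gata3, Cd4, Icos and Il2rb. The text prints a selection of these, and results for some items are not reported here. The comparison, lists and rules were chosen with earlier results of these data known.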

Additional observations from a re-analysis of the deposited data

How the results depend on the processing

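The 22126 called regions became 11531 to 18011 with 1 of the 4 libraries left out (7463 to 10363 higher, 4068 to 7648 lower; the lowest without the second iNKT1 library), and 12718 (4120 lower) when a change beyond 1.5-fold was required. The balance of directions depended on scaling: library totals gave 13466 higher and 6115 lower, and housekeeping starts 18164 and 3587, with the median over all regions moving from 0.04 to 0.27 and 0.51. DESeq2's test called 23552 regions, and 22276 were called without the regions of 150 bp or less (chosen after seeing the data). Same-numbered replicates deviated together in ATAC-seq (correlation 0.60 between iNKT1 and iNKT2), but the labels state no shared batch and there are only 2 pairs. A replicate block raised the calls to 29681, and to 10482 from 4798 (8.81%) between iNKT17 and iNKT2. For RNA, 159 calls became 158 with the block, 130 with crossed numbers (chosen after seeing the data; the correlation was -0.13), 445 without the low-count filter, 1009 with DESeq2 and 153 to 315 with 1 library left out, the highest without the first iNKT1 library. The causes were not tested. Depth limits weak regions, whose levels rest on few counts.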

Other observations

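The 2 directions were not evenly spread over chromosomes. On chromosome 11, 1089 of 4471 regions were higher in iNKT2 and 391 lower (loess scaling 1036 and 296), while on chromosome X 105 of 1139 were higher and 246 lower (loess scaling 74 and 208). Chromosome Y went the other way from X, with 3 of 10 regions higher and 0 lower (loess scaling 7 and 0). The sex of the animals was not given, and a difference in sex between the groups was not tested.

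Neighbouring regions often moved together; the following stretches were picked after their values were seen. On chromosome 15, 24 consecutive regions over 766.6 kb around Adamts20 and Pus7l were higher in iNKT2, 22 of them also with loess scaling. On chromosome 14, 14 consecutive regions over 98.7 kb at Blk and Fam167a were higher. On chromosome 7, 16 consecutive regions over 645.8 kb in the cluster of interferon-inducible Gvin1 genes were lower, all 16 also with loess scaling. On chromosome 10, 10 regions over 173.2 kb between Olig3 and Ifngr1, the interferon gamma receptor gene, were lower.

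Of 3292 genes with at least 5 regions, 32 had all of them higher in iNKT2, among them Adamts20 with 12 regions and Dpp4 with 8, and 10 had all of them lower, among them Gvin1 with 9, Spry2 with 6 and Vim with 5.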
